A study of Mus musculus with 5 samples.

Results

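The collagen genes of the mouse ovary were described across cell types and across postnatal age. They were taken as every gene whose symbol consists of Col, a type number, the letter a and a chain number, which gave 44 genes of the 31053 in the count tables, from Col1a1 to Col28a1. The cells came from ovaries of untreated C57BL6/J mice aged 2, 3, 4, 5 and 6 wk, dissociated with trypsin, sorted for live cells by exclusion of a SYTOX dead cell stain and profiled by 10x Genomics 3′ single-cell RNA sequencing (v3.1 chemistry). Each age is 1 library, the sources used here do not give the number of mice in each, and no age has a replicate, so ages were not tested against each other. The study followed the first wave of ovarian follicles through puberty, and the collagens were examined for which cells expressed which chain, and when.

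A collagen molecule is a helix of intertwined chains, each chain encoded by its own gene, and chains of different genes can share a molecule. Fibrillar collagens such as types I, III and V build the tensile fibres of connective tissue, type IV collagens form the sheet-like network of basement membranes, and type VI collagens form beaded filaments around cells. Other types coat fibrils, link basement membranes to the surrounding matrix or remain anchored in the plasma membrane. In the ovary, each follicle is wrapped by a basement membrane, and theca, stroma, muscle and vessels lie outside it.

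The 5 libraries held 48163 cells and between 93438618 and 144609431 unique molecular identifiers (UMIs, each standing for 1 captured RNA molecule), with a median of 9056 to 12424 UMIs per cell. Of the cell barcodes, 273 occurred in more than 1 library. Cells were clustered without the collagen genes, and clusters were named, with the ending "-like", from marker genes among which there was no collagen. Cell Ranger 3.1.0 made the tables of 2, 3 and 4 wk and version 6.0.1 those of 5 and 6 wk, so version and age cannot be told apart. Levels are in CPM (UMIs of the gene in a cell group, divided by all UMIs of that group and multiplied by 1000000) and are given as mean ± SD over the 5 libraries (n = 5). That spread includes age. Because the 3′ chemistry counts molecules and not length, CPM values were compared between cell groups and not between genes, and ratios of chains were compared only between groups. Hematopoietic-like cells (498 cells), whose own matrix production is low, carried a collagen share of 0.112% ± 0.053 of their UMIs, which is given throughout as the background, the level that RNA from other cells can reach. Whether that RNA was free or came from attached cells was not tested, and the stromal-like, smooth muscle-like and granulosa-like marker lists summed to 392, 364 and 765 CPM in these cells. Their median cell held 4989 to 8763 UMIs, against 12823 to 17798 in granulosa-like cells.

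Collagens made up 2227814 of 587723639 UMIs, or 0.379%. Fibrillar collagens (11 genes) supplied 60.6% of them, the basement membrane chains of type IV (6 genes) 18.3% and the beaded filament chains of type VI (6 genes) 13.9%. The multiplexins Col15a1 and Col18a1 added 3.04%, the fibril-associated collagens (9 genes) 2.97% and all others under 1% each. At least 1 UMI was counted for each of the 44 genes. A mean level of at least 50 CPM in some cell group was reached by 26 genes, which are described below. The other 18 peaked between 0.108 CPM (Col2a1, the cartilage fibril collagen) and 42.2 CPM (Col27a1), 3 of them under 1 CPM and 9 between 1 and 10 CPM.

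Stromal-like cells devoted 0.938% ± 0.114 of their UMIs to collagens, with 1.12%, 0.847%, 0.974%, 0.906% and 0.844% at 2, 3, 4, 5 and 6 wk. Pericyte-like cells had 0.678% ± 0.069, smooth muscle-like cells 0.575% ± 0.099 and blood endothelial-like cells 0.390% ± 0.079. Surface epithelial-like cells carried 0.385% ± 0.112, theca-like cells 0.322% ± 0.128 and lymphatic endothelial-like cells 0.219% ± 0.056. Granulosa-like cells, the largest class with 18282 cells, carried 0.0645% ± 0.0163, below the hematopoietic-like background. The stromal-like share lay above that of every other class in each library, whereas the ranges of blood endothelial-like, surface epithelial-like and theca-like cells overlapped. Within the mesenchyme the Pi16 adventitial-like fibroblasts (751 cells, named from genes such as Dpt and Clec3b) stood apart with 3.15% ± 0.93, and each of their libraries, from 2.22% to 4.66%, exceeded each library of every other subtype.

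**Figure D1:**
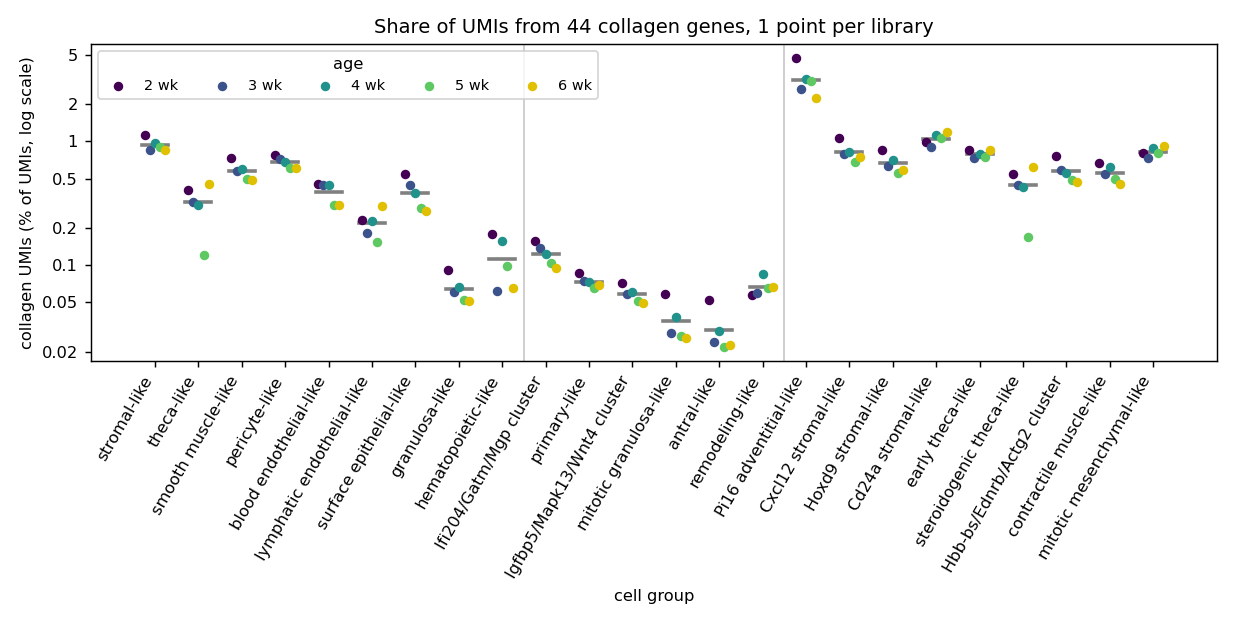
Share of all UMIs that came from the 44 collagen genes, in percent on a log axis, by cell class and by granulosa and mesenchymal group. Points are single libraries (1 per age) and bars are means over the 5 libraries, and Pi16 adventitial-like cells lie highest, from 2.22% to 4.66%, with antral-like granulosa cells lowest at a mean of 0.0300%.

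The mixture of families also differed between cell types. Fibrillar genes gave 65.1% of the collagen UMIs of stromal-like cells and 79.5% of those of Pi16 adventitial-like cells, whereas type IV genes gave 55.1% in pericyte-like, 69.3% in blood endothelial-like and 48.3% in lymphatic endothelial-like cells. Type VI genes reached 37.1% in surface epithelial-like cells. Multiplexins were 46.7% of the collagen UMIs in the granulosa cluster led by Ifi204, Gatm and Mgp and 38.0% in primary-like granulosa cells.

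**Figure D2:**
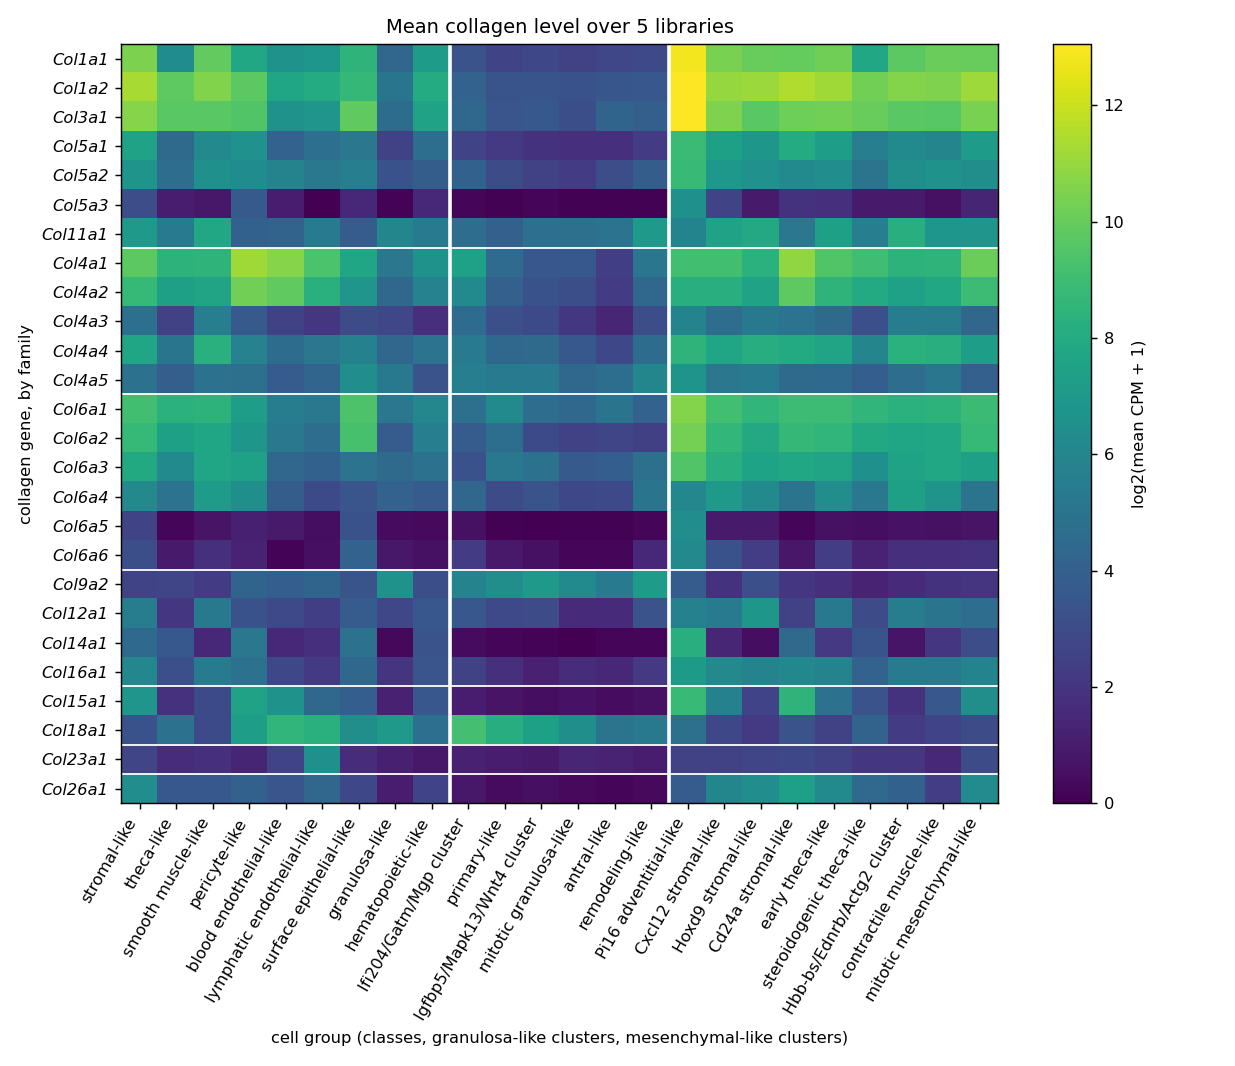
Mean level of the named collagen genes, as log2(CPM + 1) averaged over 5 libraries, in each cell class and subgroup. Fibrillar genes are high across stromal and muscle columns, Col4a1 and Col4a2 peak in pericyte-like cells (2375 and 1248 CPM), and Col18a1 reaches 579 CPM in the Ifi204 cluster.

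Type I collagen, the main tensile fibril of connective tissue, is built from the chains of Col1a1 (chr11:94936224-94953042, + strand, GRCm38) and Col1a2 (chr6:4504814-4541544, + strand). Col1a1 was at 1882, 1500.0, 1487, 1247 and 1049 CPM in stromal-like cells from 2 to 6 wk (mean 1433 ± 313) and at 35.8, 17.7, 17.8, 9.26 and 12.9 CPM in granulosa-like cells, with hematopoietic-like cells at 144 CPM. The stromal-like and granulosa-like ranges did not overlap, and the granulosa-like values lay below the hematopoietic-like mean. The granulosa-like class also held unnamed clusters. One, of 382 cells, had 49.7% called doublets, with Col1a2, Col1a1 and the oocyte genes Ooep and Zp3 among its leading genes. In the granulosa groups described below, the mean of Col1a1 was 5.04 (mitotic) to 9.26 CPM (Ifi204 cluster), against 18.7 CPM in the class. The part of the unnamed clusters in the class level was not tested. Col1a2 was at 2602 ± 438 CPM in stromal-like and 32.5 CPM in granulosa-like cells. In edgeR's quasi-likelihood test with library as a block, the differences were 6.55 ± 0.46 (log2 ± SE, edgeR adjusted p = 2.19e-14) for Col1a1 and 6.56 ± 0.46 for Col1a2, and Col3a1, whose type III chains form reticular fibres, differed by 6.39 ± 0.37 (edgeR adjusted p = 8.10e-17).

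Of the 32 collagen genes with enough UMIs to be tested between classes, 27 were higher in stromal-like than in granulosa-like cells and 2 were lower, where 30.6% and 32.3% of all 12751 tested genes were called higher and lower. The median difference was 3.98 over the tested collagens and -0.04 over all tested genes. The lower genes were Col18a1 (-3.37 ± 0.33, edgeR adjusted p = 8.93e-11) and Col9a2 (-4.14 ± 0.34, edgeR adjusted p = 6.17e-13). Col4a5, with -0.34 ± 0.22, did not pass (edgeR adjusted p = 0.171). The cell groups were built from other genes of the same cells, which these p-values do not take into account. The fit of classes took in 9 groups over 5 libraries of different age (45 sums), which shared the estimate of spread. The p-values therefore rest on spread pooled over these groups, and not on how the named difference alone varied over the libraries. The granulosa and mesenchymal fits below were made in the same way.

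Col3a1 was at 1628 ± 314 CPM in stromal-like and 943 ± 508 CPM in surface epithelial-like cells. Its start is shown because a TATA-like word lies within the 150 bases upstream, nearer their far end than the start. The 150 bases before the first base of Col3a1 (chr1:45311388-45311537, + strand, GRCm38.p6, RefSeq; outside annotated exons) follow, with TATAAA in capitals.
Col3a1 upstream: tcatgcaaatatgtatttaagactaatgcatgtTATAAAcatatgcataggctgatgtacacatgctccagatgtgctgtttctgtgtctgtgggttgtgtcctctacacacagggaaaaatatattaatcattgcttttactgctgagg
The gene of another fibrillar chain, Col11a1 (chr3:114030390-114030539, + strand, the 150 bases before its start), is set against it, with GGGCGG and ATTGG, the word CCAAT on the other strand, in capitals.
Col11a1 upstream: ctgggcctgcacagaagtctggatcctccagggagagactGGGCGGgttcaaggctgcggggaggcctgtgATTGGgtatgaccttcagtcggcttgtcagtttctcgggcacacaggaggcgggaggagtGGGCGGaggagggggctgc
Promoter windows of 300 bases were present for 35 collagen genes (38 windows). On either strand TATAAA occurred in 13.2% of them (13.6% of all 32851 windows), CCAAT in 34.2% (37.4%) and GGGCGG in 60.5% (35.7%). A word match is a description of the sequence and no evidence of binding.

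The balance of the type I chains depended on the cell type. In stromal-like cells the ratio of Col1a1 to Col1a2 UMIs was 0.557, 0.631, 0.608, 0.532 and 0.426 from 2 to 6 wk (0.551 ± 0.080). In theca-like cells, named from genes such as Cyp11a1 and Cyp17a1, it was 0.121, 0.0818, 0.0895, 0.0630 and 0.0707 (0.0851 ± 0.022), lower in 5 of 5 libraries. The study counts interstitial gland cells among the theca cells of these libraries, and the share of each in this class was not tested. Col1a2 itself was at 908 ± 437 CPM in theca-like cells while Col1a1 was at 81.4 ± 49.5 CPM, below the hematopoietic-like level of 144 CPM. Against stromal-like cells Col1a1 differed by -4.35 ± 0.43 (edgeR adjusted p = 2.40e-10) and Col1a2 by -1.63 ± 0.38 (edgeR adjusted p = 5.18e-04).

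Pericyte-like cells also had a low ratio, of 0.245 ± 0.143, which went from 0.401 at 2 wk through 0.388, 0.213 and 0.132 to 0.0912 at 6 wk. It lay below the stromal-like ratio in 5 of 5 libraries. Col1a1 in pericyte-like cells was at 450 CPM at 2 wk and 74.3 CPM at 6 wk. Hematopoietic-like cells had 265 and 79.8 CPM at these ages, so the 6 wk ratio rests on a level at background. Smooth muscle-like cells had 0.638 ± 0.156 and surface epithelial-like cells 0.829. Among subtypes the ratio ranged from 0.173 ± 0.039 in steroidogenic theca-like and 0.348 ± 0.040 in Cd24a stromal-like to 0.876 ± 0.057 in Pi16 adventitial-like cells. Since the 2 genes are counted by their own 3′ ends, the ratios compare cell groups and are not the stoichiometry of the protein.

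**Figure D3:**
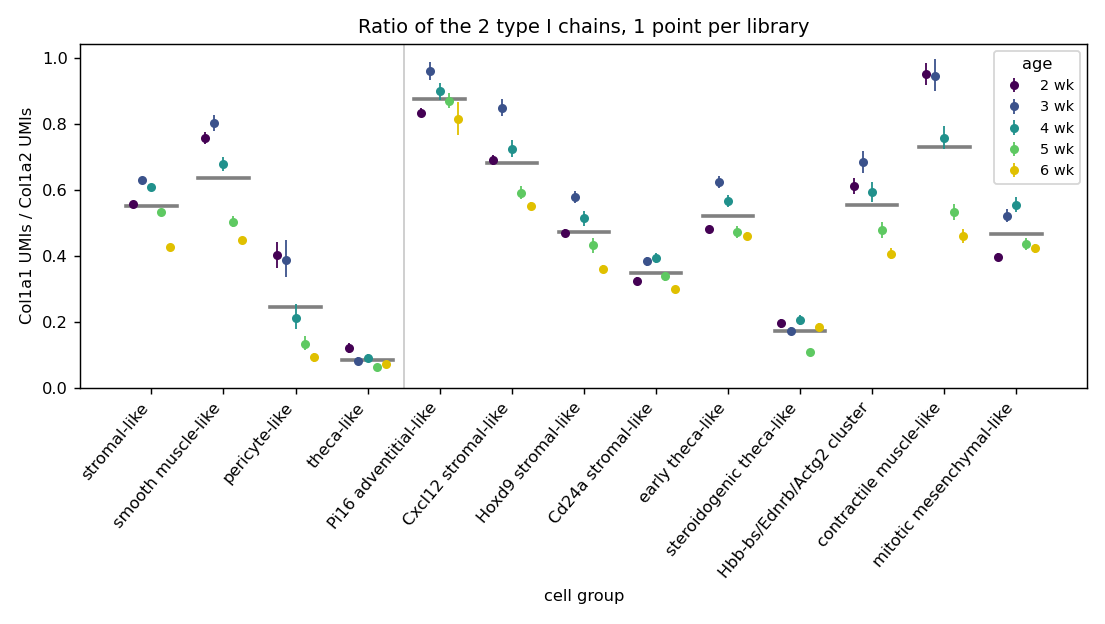
Ratio of Col1a1 to Col1a2 UMIs by cell group, 1 point per library, with vertical lines for exact 95% intervals that cover counting error only and bars for means. Theca-like libraries lie between 0.0630 and 0.121 and stromal-like libraries between 0.426 and 0.631.

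Type V chains seed type I fibrils and set their width. Col5a1 was at 181 CPM in stromal-like cells and 470 ± 145 CPM in Pi16 adventitial-like cells, and Col5a2 at 109 and 446 CPM. The ratio of Col5a1 to Col5a2 was 1.70 in stromal-like, 0.750 in smooth muscle-like and 0.284 in blood endothelial-like cells, and reached 3.69 ± 0.77 in Cd24a stromal-like cells. Col5a3, a less common type V chain, was at 87.1, 60.1, 104, 148 and 58.9 CPM in Pi16 adventitial-like cells, against a mean of 5.47 CPM in Cxcl12 stromal-like cells, with no overlap.

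Col11a1, a minor fibrillar chain best known from cartilage, had its highest class level in smooth muscle-like cells, at 169, 266, 302, 152 and 209 CPM, against 119, 144, 161, 113 and 134 CPM in stromal-like cells. The ranges overlapped and the difference of 0.75 did not pass (edgeR adjusted p = 0.0743). In hematopoietic-like cells it was at 28.6, 15.2, 127, 7.30 and 25.2 CPM, so the background at 4 wk was close to the stromal-like level.

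Most collagens called between muscle and stroma were lower in muscle. Of the 32 tested genes, 3 were higher and 17 lower in smooth muscle-like than in stromal-like cells (14.8% and 17.1% of all tested genes), with a median of -0.77 (-0.02 over all genes). Lower genes were found in every family, among them 3 of 8 fibrillar, 2 of 6 type IV, 3 of 6 type VI and 3 of 3 transmembrane genes. The higher genes were Col6a4 (1.17 ± 0.27, edgeR adjusted p = 8.03e-04), Col4a3 (1.08 ± 0.20, edgeR adjusted p = 3.80e-05) and Col4a4 (0.79 ± 0.21, edgeR adjusted p = 2.75e-03). Col15a1 differed by -3.96 ± 0.46 (edgeR adjusted p = 1.86e-08). Without the library block 13 calls were made in place of 20.

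Type IV collagen networks are built from different sets of chains, whose genes lie in head-to-head pairs. Col4a1 and Col4a2, the chains of nearly all basement membranes, start on opposite strands of chromosome 8 and share their first bases, the exonic stretch chr8:11312805-11312826 (GRCm38.p6, + strand, 22 bases, GGGCGG in capitals). Col4a4 and Col4a3, chains known from the filtration barrier of the kidney, are separated by 71 bases of chromosome 1 that hold no annotated exon and none of the 3 words (chr1:82586850-82586920, - strand). Both stretches are shown because each lies between a pair whose levels were then compared.
Col4a1 and Col4a2 shared start: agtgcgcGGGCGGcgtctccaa
Col4a4 to Col4a3 gap: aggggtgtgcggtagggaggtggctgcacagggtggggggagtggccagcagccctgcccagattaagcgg
The starts of Col4a6 and Col4a5 on chromosome X lay 1308 bases apart.

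Col4a1 was highest in pericyte-like cells, the contractile cells on small vessels, at 2383, 2526, 2526, 2151 and 2288 CPM, followed by blood endothelial-like cells at 1487, 1916, 1926, 1504 and 1522 CPM. Pericyte-like values exceeded endothelial-like ones in every library. Stromal-like cells had 883 ± 226 CPM, lymphatic endothelial-like cells 656 ± 99, smooth muscle-like cells 360 ± 54 and theca-like cells 352 ± 129, the last pair overlapping. Hematopoietic-like cells had 105 CPM and granulosa-like cells 35 CPM. Col4a2 followed the same order with 1248 ± 160 CPM in pericyte-like and 942 ± 174 CPM in blood endothelial-like cells, and the ratio of Col4a1 to Col4a2 stayed between 1.77 and 2.14 over the class means.

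Against stromal-like cells, pericyte-like cells had 4 collagen genes called higher and 16 lower (18.4% and 17.4% of all genes), with a median of -0.97 (-0.04 over all genes). Col4a1 differed by 1.32 ± 0.27 (edgeR adjusted p = 1.85e-04), Col4a2 by 1.43 ± 0.23 (edgeR adjusted p = 4.17e-06) and Col18a1 by 3.97 ± 0.35 (edgeR adjusted p = 2.23e-11). The fourth was Col9a2 (1.48), at low means of 17.6 CPM in pericyte-like and 5.34 CPM in stromal-like cells. Its hematopoietic-like background was 7.78 CPM, and granulosa-like cells had 98.3 CPM. Among the lower genes Col1a1 differed by -3.07 ± 0.40 (edgeR adjusted p = 1.26e-07) and Col11a1 by -3.43. In blood endothelial-like cells 6 were higher and 24 lower (24.1% and 26.6%), with a median of -3.11 (-0.06 over all genes). Here Col18a1 differed by 5.26 ± 0.36 (edgeR adjusted p = 1.93e-14), Col4a2 by 0.95 ± 0.23 (edgeR adjusted p = 6.28e-04) and Col4a1 by 0.74 ± 0.27 (edgeR adjusted p = 0.0209), and Col9a2, Col8a1 and Col13a1 completed the 6. Col8a1, a chain of the sheet-like type VIII collagen, and the membrane-bound Col13a1 had class means of 37.1 and 41.2 CPM there. Col9a2 had 13.85 CPM there.

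The pericyte-like marker list summed to 340 CPM (247 to 517) in blood endothelial-like cells, where all 6 markers had UMIs, against 4430 CPM in pericyte-like cells. The blood endothelial-like list in turn summed to 338 CPM in pericyte-like cells, where the smooth muscle-like list summed to 4621 CPM (2653 to 6328), against 559 CPM in stromal-like cells. The median blood endothelial-like cell held 4560.0, 2217, 3667, 15162 and 9674.5 UMIs from 2 to 6 wk, so its depth also differed between the ages. The part of these in the type IV levels was not tested.

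Unlike the Col4a1 pair, Col4a4 was, among the classes, highest in smooth muscle-like cells, at 388, 371, 328, 282 and 189 CPM (312 ± 80), with stromal-like cells at 424, 198, 166, 150 and 116 CPM (211 ± 123) and hematopoietic-like cells at 30.9 CPM. The stromal-like level exceeded the smooth muscle-like one at 2 wk only. Among subtypes, Pi16 adventitial-like cells had 360 ± 143 CPM. Col4a3, with 9156 UMIs in the series, was at 47.1 ± 14.0 CPM in smooth muscle-like and 26.0 ± 18.1 CPM in stromal-like cells, and at 58.5 CPM in Pi16 adventitial-like cells. The ratio of Col4a3 to Col4a4 was 0.120 in stromal-like, 0.151 in smooth muscle-like and 0.312 in granulosa-like cells. Granulosa-like cells had a mean of 18.6 CPM of Col4a4, under the hematopoietic-like 30.9 CPM.

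Lymphatic endothelial-like cells (231 cells, 14 of them at 6 wk) had less type IV than blood endothelial-like cells. Col4a1 differed by -1.43 ± 0.28 (edgeR adjusted p = 2.03e-04) and Col4a2 by -1.69 ± 0.25 (edgeR adjusted p = 2.03e-06). The 1 gene called higher was Col23a1, a membrane-bound collagen, at 99.5, 72.9, 96.8, 94.7 and 100.4 CPM in lymphatic endothelial-like cells against a mean of 5.14 CPM in blood endothelial-like and 0.781 CPM in hematopoietic-like cells. The groups did not overlap, and the difference was 4.43 ± 0.37 (edgeR adjusted p = 1.58e-12). In all, 1 collagen was higher and 4 lower (9.33% and 11.4% of all genes), the lower ones including Col15a1 (-3.54 ± 0.79, edgeR adjusted p = 8.70e-04). Col18a1 (-0.47) did not pass (edgeR adjusted p = 0.393). The median over the tested collagens was -0.12.

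Type VI collagen is assembled inside cells from the chains of Col6a1, Col6a2 and another chain, usually that of Col6a3. Surface epithelial-like cells had the highest class level of Col6a1, at 658, 737, 631, 586 and 773 CPM, against 623, 527, 563, 534 and 453 CPM in stromal-like cells, and the higher value in each library was the epithelial one. Col6a2 was at 601 ± 58 and 426 ± 85 CPM. Col6a3 instead was at 56.5, 20.9, 11.3, 36.0 and 28.9 CPM in surface epithelial-like cells, at the hematopoietic-like background of 29.2 CPM, against 244 ± 70 CPM in stromal-like cells. The ratio of Col6a3 to Col6a1 was thus 0.0462 ± 0.0274 in surface epithelial-like cells, 0.453 ± 0.125 in stromal-like and 1.14 in pericyte-like cells.

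Chains that can take the place of Col6a3 were present at low levels in the surface epithelial-like cells, with Col6a6 at 16.2 ± 4.7 CPM and Col6a5 at 8.77 CPM. Against granulosa-like cells, 21 collagen genes were higher and 3 lower in surface epithelial-like cells (26.5% and 26.3% of all genes), with a median of 2.48 (-0.05 over all genes). Col6a2 differed by 5.64 ± 0.40 (edgeR adjusted p = 5.99e-14), Col6a1 by 4.26 ± 0.32 (edgeR adjusted p = 2.58e-13) and Col4a5, a basement membrane chain, by 1.01 ± 0.26 (edgeR adjusted p = 1.09e-03). Col6a3, with 0.42, did not pass (edgeR adjusted p = 0.466). The stromal-like marker list summed to 1367 CPM (609 to 1852) in these cells against 3408 CPM in stromal-like cells, and its part in the fibrillar levels there was not tested.

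Col6a4, also an alternative chain of type VI, was at 85.2, 143, 172, 161 and 165 CPM in smooth muscle-like and 39.7, 63.1, 77.0, 84.0 and 82.9 CPM in stromal-like cells, without overlap. Col6a5 and Col6a6 had their highest levels in Pi16 adventitial-like cells, with 83.6 ± 58.5 and 70.1 ± 22.6 CPM. Col6a5 was near 0 in Cxcl12 stromal-like cells, at 0.904 CPM.

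The fibril-associated collagens do not form fibrils but decorate them. Col12a1, which coats type I fibrils, was at 190, 108, 86.7, 108 and 100 CPM in Hoxd9 stromal-like cells and at a mean of 42.6 CPM in Cxcl12 stromal-like cells. Col14a1, of similar structure, was at 288, 230, 290, 382 and 256 CPM in Pi16 adventitial-like cells, far from its next highest groups, pericyte-like (34.8 ± 8.0 CPM) and surface epithelial-like (29.1 ± 25.9 CPM), with a background of 9.10 CPM. Col16a1 was the steadiest of the named genes in stromal-like cells, at 64.2, 59.5, 66.3, 64.1 and 65.0 CPM.

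Col9a2 is a chain of type IX collagen, which in cartilage is made together with the chains of Col9a1 and Col9a3. It was a granulosa gene here, at 61.1, 93.4, 162, 99.0 and 76.0 CPM in granulosa-like cells against 7.78 CPM in hematopoietic-like cells. In granulosa-like cells Col9a2 had 30106 UMIs, Col9a1 38 and Col9a3 91.

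The multiplexins sit in the basement membrane zone, and the end of the Col18a1 chain is released as endostatin. Col15a1 had overlapping ranges among pericyte-like (182 ± 42 CPM), stromal-like (113 ± 48 CPM) and blood endothelial-like cells (101 ± 21 CPM), and reached 438 ± 78 CPM in Pi16 adventitial-like and 364 ± 193 CPM in Cd24a stromal-like cells. Col18a1 (chr10:77052178-77166548, - strand) was highest, among classes, in blood endothelial-like cells, at 539, 428, 406, 307 and 246 CPM, with lymphatic endothelial-like cells at 458, 377, 336, 197 and 185 CPM and granulosa-like cells at 331, 164, 47.8, 48.8 and 50.5 CPM. The endothelial groups overlapped, and the background was 26.5 CPM. Col26a1, first known from ovary and testis, was at 107, 99.2, 89.2, 52.7 and 65.8 CPM in stromal-like cells and differed by 6.41 from granulosa-like cells.

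Granulosa cells, the somatic cells inside the follicle, were divided into stages. Primary-like (3542 cells), antral-like (1451), remodeling-like (5120) and mitotic (2006) clusters could be named. The cluster led by Igfbp5, Mapk13 and Wnt4 (1810 cells) scored highest for secondary follicles and the cluster led by Ifi204, Gatm and Mgp (823 cells) for primordial follicles, but the leading genes of both held more markers of another stage, and they are called here by those genes. Remodeling-like cells were named from genes such as Cyp1b1, Bmp2, Nupr1 and Adamts5, and the muscle genes Tagln and Acta2, as well as Col11a1, were among the leading genes of some of their clusters. The largest of these clusters, with 1826 of the 5120 cells, had a higher mean score for the antral markers (0.828) than for the remodeling markers (0.702) and the antral marker Vpreb3 among its leading genes, and it was named remodeling-like because under 3 antral markers passed the detection limit in it, against 8 of 10 remodeling markers.

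Col18a1 was graded over these groups. It was at 736, 657, 628, 477 and 395 CPM in the Ifi204 cluster, at 381, 276, 272, 235 and 242 CPM in primary-like cells and at 299, 186, 160, 104 and 106 CPM in the Igfbp5 cluster. Antral-like cells had 126, 19.4, 6.44, 2.09 and 4.10 CPM and remodeling-like cells 101, 77.5, 6.04, 3.1 and 4.48 CPM. In every library the Ifi204 cluster was above the primary-like cells and these above the Igfbp5 cluster, but neither step passed (edgeR adjusted p = 0.204 and 0.482). The estimate of spread was shared by all 6 granulosa groups, including antral-like and remodeling-like cells with their wide range over the ages. It is therefore not the spread of these steps alone. The step from the Igfbp5 cluster to antral-like cells was 3.28 ± 0.69 (edgeR adjusted p = 9.82e-04), and the antral-like level from 4 wk on lay at 6.44, 2.09 and 4.10 CPM, where hematopoietic-like cells of the same libraries had 4.04, 8.03 and 7.80 CPM.

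**Figure D4:**
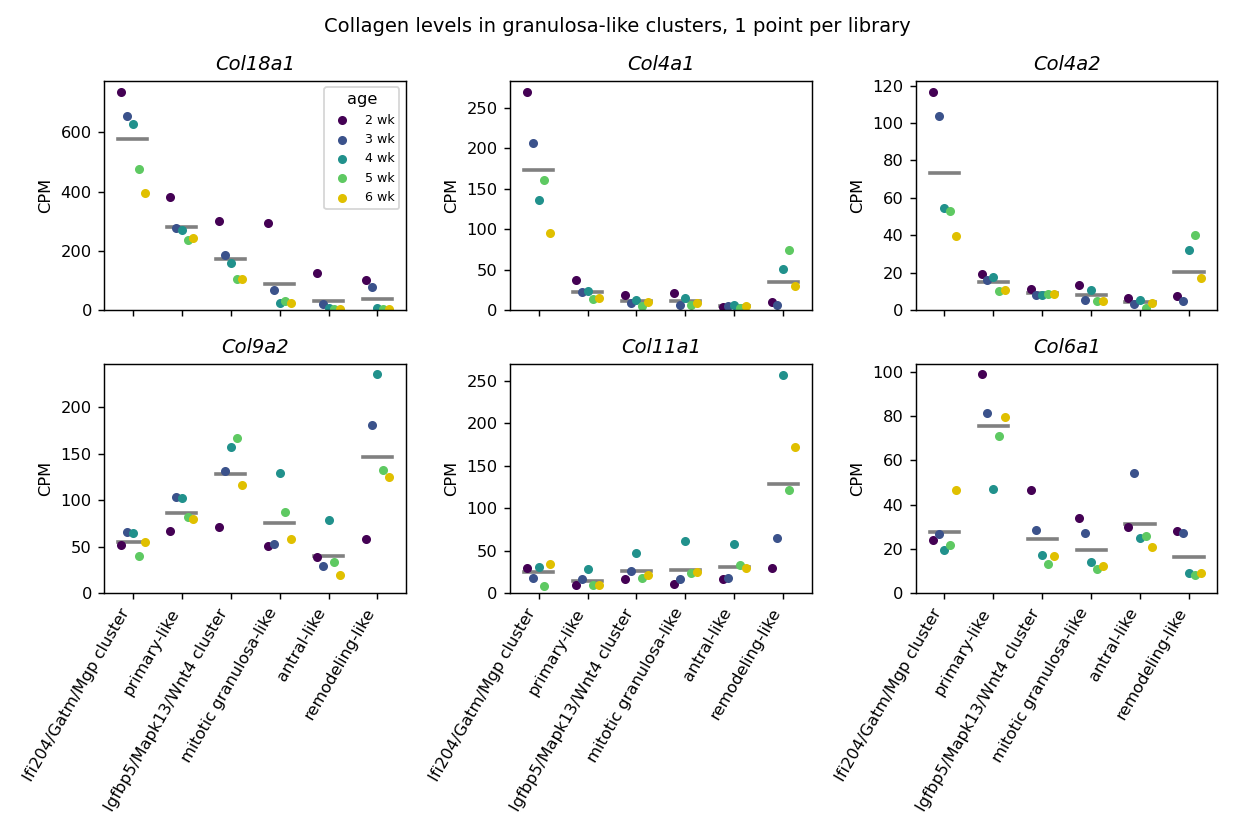
Level of 6 collagen genes in the granulosa groups, in CPM on a linear axis, with 1 point per library and a bar at the mean. Col18a1 lies at 395 to 736 CPM in the Ifi204 cluster and at 2.09 to 126 CPM in antral-like cells, and Col11a1 has its highest mean, 129 CPM, in remodeling-like cells.

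The Ifi204 cluster differed from primary-like cells in type IV, type VI and some fibrillar chains. Of 28 tested genes, 10 were higher and 3 lower (19.0% and 18.9% of 12734 genes), with a median of 0.73 (-0.02 over all genes). Col4a1 was at 270, 206, 136, 161 and 95 CPM in the cluster and 22.5 CPM in primary-like cells (2.92 ± 0.45, edgeR adjusted p = 3.22e-05), with no overlap. Col4a2 differed by 2.33 ± 0.40 (edgeR adjusted p = 1.15e-04). Of the type IV genes 4 of 6 were higher. Of 5 tested type VI genes, 3 were lower (Col6a1, Col6a2 and Col6a3) and 2 higher, Col6a4 with 1.21 ± 0.34 (edgeR adjusted p = 6.51e-03) and Col6a6 with 1.87 ± 0.66 (edgeR adjusted p = 0.0272). Col6a6 had low, overlapping levels (means 3.91 and 0.847 CPM) and was higher in 3 of 5 libraries. Of 8 fibrillar genes 3 were higher, Col1a2, Col3a1 and Col5a2. They were at 16.2, 20.3 and 15.5 CPM in the cluster and at 258, 182.5 and 13.6 CPM in hematopoietic-like cells. Hematopoietic-like cells had 105 CPM of Col4a1, within the range of the cluster. The stromal-like marker list summed to 107 CPM (72.6 to 134) in the cluster and to 23.8 CPM in primary-like cells, and the smooth muscle-like list to 61.9 and 19.5 CPM. Their part in the difference was not tested. Without the library block 7 calls were made in place of 13.

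In primary-like cells the type VI chains of Col6a1 and Col6a2 were higher than in both neighbouring groups. Col6a1 was at 98.7, 81.1, 46.8, 71.1 and 79.6 CPM, against a mean of 24.5 CPM in the Igfbp5 cluster (1.59 ± 0.27, edgeR adjusted p = 1.15e-03), and the ranges did not overlap, the highest value of the cluster being 46.5 CPM. The Ifi204 cluster had 27.7 CPM, a difference of -1.65 ± 0.32 (edgeR adjusted p = 3.43e-04). The hematopoietic-like background was 64.4 CPM, although those cells were shallower. Between primary-like cells and the Igfbp5 cluster 3 collagens were called higher (Col6a1, Col6a2 and Col24a1) and 0 lower in edgeR's test (3.47% and 2.69% of all genes), with 5 at an unadjusted p under 0.05. Col24a1 had a low mean of 1.92 CPM in primary-like cells. Without the library block edgeR called 0 collagens.

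From the Igfbp5 cluster to antral-like cells 7 of 28 genes were called, all higher in the former (17.6% of all genes were called higher), with a median of 0.47. Besides Col18a1 these were Col4a3, Col12a1, Col4a6, Col9a2 (1.75 ± 0.26, edgeR adjusted p = 3.00e-05), Col4a4 (1.73 ± 0.24, edgeR adjusted p = 3.89e-06) and Col4a5 (0.74, edgeR adjusted p = 4.18e-03). Col4a5 was at 41.0 CPM in the Igfbp5 cluster and 25.2 CPM in antral-like cells, with a background of 8.98 CPM. Col4a4 was at 21.5 and 6.03 CPM in the same groups, both under its background of 30.9 CPM.

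Remodeling-like cells had higher levels of many collagens than antral-like cells, with 15 of 28 genes higher and 1 lower (18.3% and 16.7% of all genes) and a median of 1.11 (0.01 over all genes). Col9a2 was at 58.3, 181, 235, 132 and 125 CPM against 39.0, 29.7, 79.1, 33.5 and 20 CPM, a difference of 1.92 ± 0.26 (edgeR adjusted p = 7.79e-06). Col11a1 was at 29.2, 64.5, 257, 121 and 172 CPM against 16.6, 18, 57.6, 33.2 and 29.1 CPM (2.03 ± 0.30, edgeR adjusted p = 2.52e-05). In both genes the remodeling-like value was the higher in each library, although the ranges over libraries overlapped. An unnamed cluster of 581 cells scored highest for antral markers (0.987, against 0.194 for remodeling markers) and had Col11a1 among its leading genes. Another of 764 cells scored alike for antral (0.721) and mitotic markers (0.674). Neither was in the antral-like group, and the effect of leaving them out on the Col11a1 difference was not tested.

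The same contrast separated the type IV chains. Col4a4 differed by 1.94 ± 0.22 (edgeR adjusted p = 3.56e-07), Col4a5 by 1.37 ± 0.18 (edgeR adjusted p = 3.45e-06) and Col4a6, the chain encoded beside it, by 2.16 ± 0.21 (edgeR adjusted p = 1.80e-08). The means of Col4a4 were 23.9 CPM in remodeling-like and 6.03 CPM in antral-like cells, both under the hematopoietic-like mean of 30.9 CPM. Col4a1 differed by 3.02 ± 0.58 (edgeR adjusted p = 3.58e-04) at levels of 34.3 and 4.33 CPM, both under the hematopoietic-like 105 CPM. Col6a4 (2.40 ± 0.30, edgeR adjusted p = 2.02e-06) was at 10.9, 16.4, 44.3, 39.8 and 52.1 CPM in remodeling-like cells, against a background of 13 CPM. Col6a1 was the 1 lower gene (-1.06 ± 0.28, edgeR adjusted p = 4.95e-03), and Col18a1 (0.31) did not pass (edgeR adjusted p = 0.773).

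The smooth muscle-like marker list summed to 91.0 CPM (26.6 to 154) in remodeling-like and 13.6 CPM (10.4 to 16.6) in antral-like cells, the stromal-like list to 29.1 and 14.3 CPM, and the pericyte-like list to 1.97 and 1.28 CPM. For comparison, smooth muscle-like cells had 11000.0 CPM of the first list. Whether cells of these types contributed to the collagen differences was not tested.

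Mesenchymal cells were divided in the same way, and 35 collagen genes could be tested. Cxcl12 stromal-like cells (3871 cells, named from genes such as Cxcl12 and Lrat) served as the reference. Pi16 adventitial-like cells, which in other tissues lie around larger vessels, had 23 collagens higher and 4 lower (16% and 15.2% of 12582 genes), with a median of 1.58 (-0.04 over all genes). Col1a1 was at 10450.0, 6800.0, 7681, 6776 and 4465 CPM against 1846, 1603, 1390.0, 937 and 1113 CPM (2.45 ± 0.25, edgeR adjusted p = 2.45e-09). Col14a1 (7.64 ± 0.52, edgeR adjusted p = 1.35e-13) and Col6a5 (6.35 ± 0.33, edgeR adjusted p = 2.40e-18) had the largest differences, and the study itself names Col14a1-positive and Col11a1-positive fibroblast groups from these libraries, so that the levels of these genes are not independent evidence.

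Of the 6 type IV genes 4 were higher and 0 lower between these subtypes, with a median of 1.02. Col4a1 (0.08) and Col4a2 (0.10) did not pass, the former with an edgeR adjusted p = 0.812. Col11a1 differed by -1.62 ± 0.18 (edgeR adjusted p = 5.84e-09) and Col26a1 by -2.28. The 6 wk library held 43 Pi16 adventitial-like cells.

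Cd24a stromal-like cells (1390 cells, named from Cd24a, Ramp3 and Plac8 among others) differed in both directions, with 10 higher and 13 lower (19.2% and 19.0% of all genes) and a median of -0.06. Col4a1 was at 1103, 1505, 2663, 2116 and 2198 CPM against 548, 476, 642, 523 and 523 CPM (1.80 ± 0.21, edgeR adjusted p = 1.72e-08). Col15a1 was at 101, 239, 589, 438 and 455 CPM against 32.8, 34.8, 96.1, 65.9 and 35.4 CPM (2.75 ± 0.39, edgeR adjusted p = 1.06e-06), and Col26a1 differed by 1.42 ± 0.22 (edgeR adjusted p = 4.39e-06). Col11a1 differed by -2.38 ± 0.17 (edgeR adjusted p = 1.93e-13) and Col12a1 by -3.09, whereas Col1a1 (-0.39) did not pass (edgeR adjusted p = 0.209). Without the library block 15 calls were made in place of 23.

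Hoxd9 stromal-like cells had 5 higher and 10 lower (6.02% and 5.17% of all genes), with a median of -0.32. Col12a1 differed by 1.53 ± 0.25 (edgeR adjusted p = 3.62e-05), and Col15a1 (-3.43 ± 0.53, edgeR adjusted p = 2.38e-05) and Col5a3 (-2.66 ± 0.38, edgeR adjusted p = 2.30e-06) were lower. Some Cxcl12 and Hoxd9 clusters were led by hemoglobin genes, whose RNA is that of red blood cells. The count of 15 fell to 9, 8, 8 and 9 without the 2, 3, 4 or 6 wk library, and to 6 without the library block.

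Early theca-like cells (2370 cells, named from Hhip, Mest, Ptch1, Wfdc1 and Hs6st2) differed from the Cxcl12 reference in 7 collagens, 2 higher and 5 lower (11.3% and 10.5% of all genes) and a median of -0.18. The largest named difference was Col6a6 (-1.08). Leaving out each library in turn gave between 4 calls (without 3 wk) and 7 calls (without 2 wk), and without the library block edgeR called 0, with 16 of the 35 at an unadjusted p under 0.05 in the fit with the block. With collagens kept among the clustering genes the count was 14.

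Most collagens were lower in steroidogenic theca-like cells (1574 cells, with Cyp17a1 and Cyp11a1) than in early theca-like cells, with 25 of 35 lower and 3 higher (23.6% and 20.7% of all genes) and a median of -1.06. Col1a1 was at 357, 216, 209, 40.5 and 321 CPM against 1309, 1361, 1160.0, 975 and 1179 CPM (-2.58 ± 0.26, edgeR adjusted p = 5.55e-10). Col1a2 differed by -1.06 ± 0.19 (edgeR adjusted p = 1.86e-05), and Col3a1, with -0.34, did not pass (edgeR adjusted p = 0.179). The higher genes were Col18a1 (1.58 ± 0.39, edgeR adjusted p = 1.00e-03), Col8a1 (1.70) and Col25a1 (2.49), a membrane-bound collagen that peaked at 16.7 CPM in theca-like cells. In the theca-like class Col18a1 had a mean of 29.0 CPM, near the hematopoietic-like background of 26.5 CPM. At 6 wk it was at 3.73 CPM there and at 7.80 CPM in hematopoietic-like cells. Col8a1 had a mean of 5.62 CPM in theca-like cells.

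At the level of classes, 26 of 32 collagens were lower and 2 higher in theca-like than in stromal-like cells (25% and 22.4% of all genes), with a median of -1.75 (-0.01 over all genes). Col15a1 differed by -5.81 ± 0.61 (edgeR adjusted p = 8.62e-10), Col12a1 by -4.12 and Col5a1 by -3.20, whereas Col3a1 differed by -0.98 (edgeR adjusted p = 6.38e-03) and Col6a1 by -0.82. The 5 wk library stood apart among theca-like cells, with 574 of their 1237 cells and a collagen share of 0.120% against 0.306% to 0.453% in the other libraries.

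Contractile muscle-like cells (1465 cells) and the cluster led by Hbb-bs, Ednrb and Actg2 (1937 cells), which scored for perifollicular muscle but is named here by its genes, differed in few collagens, with 1 higher and 3 lower in the former (13.7% and 11.4% of all genes) and a median of -0.02. Col11a1 was at 74.5, 113, 179, 98.2 and 119 CPM in contractile muscle-like cells and at 288, 378, 370, 196 and 221 CPM in the cluster (-1.32 ± 0.16, edgeR adjusted p = 6.64e-08), without overlap. Without the 3 or the 4 wk library, and without the library block, 2 calls were made in place of 4.

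Genes that make, process and bind collagen were counted beside the chains. Unlike the collagens, they were not taken out before clustering, so they could have shaped the groups between which they were tested. In stromal-like against granulosa-like cells 30.6% of all tested genes were called higher and 32.3% lower. Of 20 tested genes for synthesis, such as prolyl and lysyl hydroxylases and chaperones, 12 were higher and 1 lower there. Their median was 0.54, against 3.98 for the collagens. Sparc, a collagen-binding matrix protein, differed by 3.86 ± 0.25. Of 10 genes for processing and cross-linking 8 were higher and 1 lower (median 3.27), led by the fibril-binding proteoglycan Fmod with 6.46 ± 0.27. Of 10 collagen receptors 6 were higher and 3 lower, with Ddr2, a receptor tyrosine kinase for fibrillar collagen, at 4.81 and Adgrg1, a receptor for type III collagen, at -5.03.

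The theca-like cells were lower in these genes as well. Against stromal-like cells 0 of 20 synthesis genes were higher and 13 lower by edgeR (median -0.55), where 22.4% and 25% of all genes were called. Of 10 processing genes 1 was higher and 7 lower (median -2.82), with Fmod at -6.55 and Lox, which cross-links collagen and elastin, at -5.30. In remodeling-like against antral-like granulosa cells 3 of 21 synthesis genes were higher and 11 lower (median -0.20) while the collagens were mostly higher. Of 8 processing genes 6 were higher and 1 lower there, among the former Lox (5.23 ± 0.48, edgeR adjusted p = 2.10e-08). Lox was itself among the leading genes of a remodeling-like cluster of 1254 cells, so its p-value is not independent evidence. In that contrast 18.3% of all genes were higher and 16.7% lower. In Pi16 adventitial-like cells 15 of 21 synthesis genes were higher and 2 lower (median 0.57). There 10 of 12 processing genes were higher and 1 lower (median 1.01), where 16% and 15.2% of all genes were called.

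Age was described from 1 library per time point, with exact 95% intervals that cover counting error only. Between 2 and 6 wk the collagen share went from 1.12% to 0.844% in stromal-like cells, 0.755 times the first value, or 0.279 times where libraries were merged without integration before clustering. The ratios within 1 Cell Ranger version were 0.871 (4 over 2 wk) and 0.931 (6 over 5 wk). Smooth muscle-like cells had 0.663, surface epithelial-like cells 0.502 and granulosa-like cells 0.560, with within-version ratios of 0.812 and 0.977, 0.702 and 0.946, and 0.735 and 0.969. Most of each decrease thus lay between 2 and 5 wk, across or before the change of version. The share in hematopoietic-like cells went to 0.370 times its 2 wk value, so the background moved the same way. The ratio was 1.19 in Cd24a stromal-like, 1.15 in mitotic mesenchymal-like, 1.13 in steroidogenic theca-like and 1.01 in early theca-like cells. It was also above 1 in the theca-like class (1.12), in remodeling-like granulosa cells (1.17) and in lymphatic endothelial-like cells (1.29, with 14 cells at 6 wk). These end points hide opposite steps. Within 1 version the ratios were 0.752 and 3.77 in the theca-like class, whose share was lowest, at 0.120%, at 5 wk. They were 0.779 and 3.715 in steroidogenic theca-like, 1.48 and 1.02 in remodeling-like and 0.973 and 1.95 in lymphatic endothelial-like cells.

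Of 38 collagen genes with at least 20 UMIs over both ages in stromal-like cells, 17 were at least 2-fold lower at 6 than at 2 wk and 1 was at least 2-fold higher, against 8.24% and 4.91% of all genes. In granulosa-like cells the numbers were 20 and 7 of 40 (8.69% and 7.89%), in smooth muscle-like cells 16 and 1 of 31 (8.63% and 3.3%), and in surface epithelial-like cells 16 and 0 of 24 (9.02% and 5.09%). In pericyte-like cells 6 and 1 of 25 (5.28% and 6.38%), in blood endothelial-like cells 13 and 0 of 22 (7.4% and 4.52%) and in lymphatic endothelial-like cells 1 and 3 of 11 (10.3% and 5.49%) were lower and higher. In theca-like cells, 2 of 22 were lower and 3 higher (4.97% and 4.96%). In hematopoietic-like cells, the reference for RNA from other cells, 10 of 17 were lower and 1 higher (8.01% and 9.1%). The stromal-like marker list varied over the libraries from 609 to 1852 CPM in surface epithelial-like and from 65.1 to 510 CPM in blood endothelial-like cells, and its part in their lower collagen levels was not tested.

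**Figure D5:**
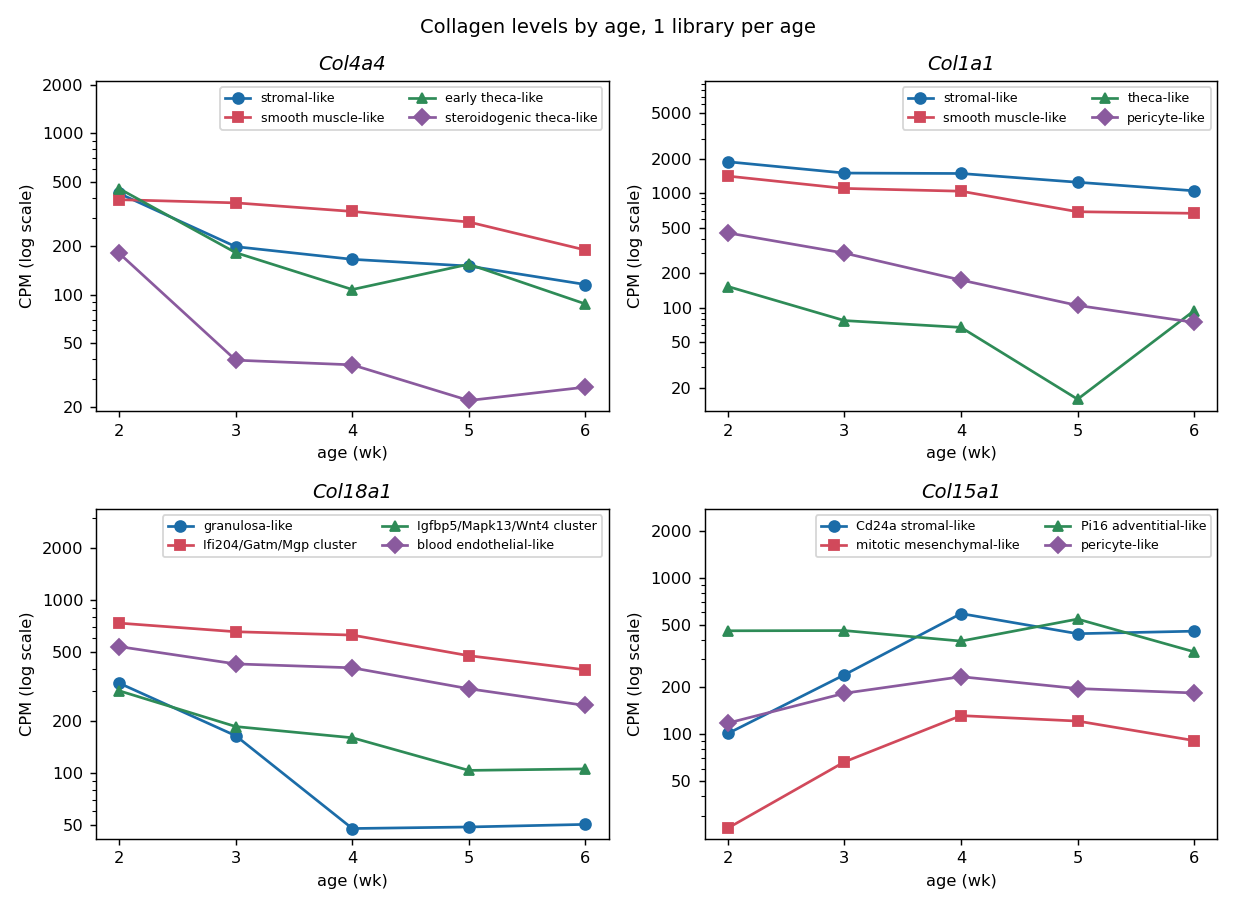
Level of Col4a4, Col1a1, Col18a1 and Col15a1 against age in wk, in CPM on a log axis, with 1 library per age and 1 line per cell group. Col4a4 in stromal-like cells goes from 424 to 116 CPM and Col15a1 in Cd24a stromal-like cells from 101 to 455 CPM.

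Col4a4 was lower at each later age in stromal-like cells, 0.273 times its 2 wk level at 6 wk (0.264 to 0.282). It was at 454, 182, 108, 154 and 87.5 CPM in early theca-like cells (0.193, 0.176 to 0.211) and at 180, 39.2, 36.7, 22.0 and 26.7 CPM in steroidogenic theca-like cells (0.148, 0.118 to 0.184). Col4a3 in stromal-like cells stood at 0.231. Col1a1 was at 450, 299, 174, 105 and 74.3 CPM in pericyte-like cells (0.165, 0.139 to 0.195), where Col1a2 was at 1121 and 815 CPM at the first and last age. The hematopoietic-like level of Col1a1 went to 0.301 times its 2 wk value.

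Col18a1 in granulosa-like cells stood at 0.153 times its 2 wk level at 6 wk (0.147 to 0.158). The stages differed in this, since antral-like cells were at 0.0326 and remodeling-like cells at 0.0446 times, while primary-like cells went from 381 to 242 CPM and the Ifi204 cluster from 736 to 395 CPM. In antral-like and remodeling-like cells most of the difference was reached by 4 wk, within 1 version of Cell Ranger. Primary-like cells numbered 1108 of the 3115 granulosa-like cells at 2 wk and 514 of 3874 at 6 wk.

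Some collagens were higher later. Col11a1 in remodeling-like cells was 5.90 times its 2 wk level at 6 wk (4.90 to 7.16) and in granulosa-like cells as a whole 4.05 times (3.78 to 4.35), with the highest value at 4 wk, where the hematopoietic-like cells also peaked at 127 CPM. The ratio was lower in the other granulosa groups, at 0.994 in primary-like, 1.76 in antral-like and 2.20 in mitotic cells. In the Ifi204 and Igfbp5 clusters it was 1.13 and 1.34. The part of changing group sizes in the value for granulosa-like cells as a whole was not tested. Col15a1 in Cd24a stromal-like cells was 4.51 times (4.06 to 5.03), already reached by 4 wk. Col6a4 in stromal-like cells reached 2.09 times (1.97 to 2.21). Col6a3 in primary-like cells went through 14.2, 23.3, 29.7, 55.7 and 60.9 CPM (4.30, 3.71 to 4.98). Hematopoietic-like cells had 41.3 CPM of it at 2 wk and 22.55 CPM at 6 wk. Between 4 and 5 wk the Cell Ranger version also changed. The ratio of Col6a3 to Col6a1 rose there in other classes too, such as stromal-like (0.291 to 0.5125) and pericyte-like cells (0.592 to 1.54).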

How the data were processed

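Single ovarian cells of 5 mouse ages were measured, with 1 library per age. The authors deposited raw UMI count tables, made with Cell Ranger 3.1.0 (2 to 4 wk) or 6.0.1 (5 and 6 wk) per the file headers, against mm10 per the labels, and used Seurat 4.1.0. Every deposited cell was kept in the main analysis, and called doublets (2.08 to 5.01% per library) were marked and removed in an alternative. Cells were clustered with Seurat 5.3.0 (R 4.3.3) after integration on 1977 of 2000 variable genes, the 23 collagens among them having been taken out, with 30 dimensions and resolution 1. Granulosa and mesenchymal cells were clustered again. Clusters were named from marker lists, some taken from the study's lists on these samples. The limits for naming were set with the clusters in view, and the collagens and lists were chosen with earlier results of these data known.

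Counts were summed per cell group and library and tested with edgeR 4.0.16 (quasi-likelihood, TMM, library as a block, Benjamini-Hochberg adjusted p under 0.05) in 17 contrasts of groups with at least 10 cells in each library. Collagens were described with values where a group reached a mean of 50 CPM, and the 3 largest differences of a list were candidates for naming. Genes were called 2-fold different between ages only with at least 20 UMIs over both. Intervals are exact 95% and cover counting error only. Alternatives were DESeq2 1.42.0, library totals, no filter, no block, leaving out each library, other clusterings, cell filters and denominators. On simulated counts for the stromal-like and granulosa-like contrast, 45 and 46 of 50 genes changed 2-fold in either direction were recovered, and 6 of 10906 unchanged genes were called. The simulated counts had 1 dispersion for all genes, no effect of library and no other group differences. They therefore do not give the recovery in the real data. Python 3.11.15 with scanpy 1.11.5 and scipy 1.17.1 served for the remaining steps. Oocytes were not analysed here.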

Additional observations from a re-analysis of the deposited data

Results flagged for a closer look

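The level of Col1a2 at 6 wk relative to 2 wk was 3.04 times in lymphatic endothelial-like cells and 0.151 times in blood endothelial-like cells. The difference between the 2 cell types was not tested, each age is 1 library, and the lymphatic endothelial-like cells at 6 wk numbered 14.

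Of 70 sets of 5 libraries examined, 5 held a library whose gap to its neighbour was over 0.71 of the whole range, where chance gives about 1 in 20. The collagen share of antral-like granulosa cells was 0.0524% at 2 wk against at most 0.0293% later. Col5a1 was at 717 CPM in Pi16 adventitial-like cells at 2 wk. Col12a1 was at 190 CPM in Hoxd9 stromal-like cells at 2 wk, and Col6a4 was lowest, at 107 CPM, in the Hbb-bs cluster at 2 wk. Col23a1 was at 72.9 CPM in lymphatic endothelial-like cells at 3 wk. The 2 wk library, which also had the highest collagen share of all UMIs (0.561%), supplied 4 of these 5.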

How the results depend on the processing

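Of 403 alternative values over 34 results, 363 kept their direction and size, 39 moved and 1 reversed. The cause of the moves was not tested. Without the library block the calls of collagen genes numbered 13 in smooth muscle-like against stromal-like cells (20 with it), 7 in the Ifi204 cluster against primary-like cells (13), 0 between primary-like cells and the Igfbp5 cluster (3) and 0 between early theca-like and Cxcl12 stromal-like cells (7). They numbered 15 for Cd24a stromal-like (23), 6 for Hoxd9 stromal-like (15) and 2 for contractile muscle-like cells (4). Leaving out each library in turn gave 4 to 7 calls for early theca-like, 8 to 15 for Hoxd9 stromal-like and 2 to 4 for contractile muscle-like cells. With collagens kept for clustering, early theca-like cells had 14 calls. In that clustering no secondary-scored cluster arose, and its 2 contrasts were not available. Merged libraries and resolution 0.6 gave class contrasts only.

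Subtracting the hematopoietic-like share left 0.278% in blood endothelial-like, 0.106% in lymphatic endothelial-like, 0.566% in pericyte-like, 0.462% in smooth muscle-like and 0.273% in surface epithelial-like cells, and -0.0478% in granulosa-like cells, the 1 reversal. Merging without integration gave a stromal-like share of 1.31%. The 6 over 2 wk ratio of the share, 0.560 in granulosa-like cells, was 0.582 with collagens kept, 0.552 merged, 0.580 without doublets, 0.527 with stricter cells and 0.588 as a mean over cells. For stromal-like cells, at 0.755, it was 0.279 merged, 0.751 without doublets, 0.768 with stricter cells, 0.611 as a mean over cells and 0.827 after subtraction. For smooth muscle-like cells, at 0.663, it was 0.702 merged, 0.676 with stricter cells, 0.575 as a mean over cells and 0.758 after subtraction. For theca-like cells, at 1.12, it was 1.08 with collagens kept, 1.02 merged, 1.03 as a mean over cells and 1.70 after subtraction.

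The split of all calls moved with scaling. Called genes were higher in 33.3% by library totals (46.5% in the main fit) for smooth muscle-like, 64.7% (51.4%) for pericyte-like and 59.7% (47.5%) for blood endothelial-like against stromal-like cells. They were 81.6% (56.3%) for primary-like cells against the Igfbp5 cluster, 35.6% (51.9%) for early and 59.4% (46.7%) for steroidogenic theca-like cells. By DESeq2 they were 61.2% (50.2%) for surface epithelial-like and 62.7% (51.4%) for Pi16 adventitial-like cells. The median of all genes shifted by -0.13, 0.12 and 0.15 by library totals for stromal-like against granulosa-like, pericyte-like and blood endothelial-like cells, and by 0.20 by DESeq2 for surface epithelial-like cells.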

Other observations

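Rete ovarii-like cells, from the tubules at the ovarian hilus, were too few for any test (90 cells, 53, 31, 5 and 1 from 2 to 5 wk and 0 at 6 wk). Multiplexins gave 52.0% of their collagen UMIs, and Col18a1 was at 285, 365, 302 and 1103 CPM from 2 to 5 wk, the last value from a single cell. Col6a6, an alternative type VI chain, was at 34.9, 62.0, 60.4 and 0 CPM.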
